A study of Homo sapiens with 28 samples.

Results

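The protocadherin clusters lie on the long arm of human chromosome 5, in band 5q31. The regions described here are the 362 chromatin immunoprecipitation (ChIP-seq) peaks of GP5d cells that overlapped chr5:139900000-141100000 on the hg18 build, a window of 1.2 Mb. They were chosen by position alone, from 393268 peaks in 22 lists, of which they are 0.0920%. The alpha, beta and gamma clusters occupy about chr5:140145000-140875000, a stretch of 730 kb called the interval here. The 245 kb below it and the 225 kb above it are called the lower and the upper flank.

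GP5d is an established human colon adenocarcinoma line. One group of cultures received 50 nM of a small interfering RNA (siRNA) against RAD21 (siRAD21), and the other received 50 nM of a neutral control siRNA. Both were harvested after 72 h. For each siRNA, 11 targets were precipitated, with 1 library per target and siRNA, so no difference between the siRNAs has a replicate check and no test was made. The series also holds 6 libraries made with non-specific immunoglobulin, which have no list used here. Those of rabbit and goat served as the background of the peak calls, and those of mouse served none of the 22 lists. Neither RNA nor protein of RAD21 was examined here, and the extent of the knockdown was not measured.

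Clustered protocadherins are cell adhesion proteins of neurons. Each variable first exon of the clusters has a promoter of its own, and a neuron uses few of them. CTCF, a zinc finger protein, binds most of these promoters and distant enhancers, and cohesin, the ring of RAD21, SMC3 and partners that extrudes chromatin loops and halts at CTCF, is known to bring the enhancers to the promoters. REST represses neuronal genes in other tissues, and the enhancer HS5-1, between the alpha and beta clusters, is known for binding of both CTCF and REST.

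The promoters themselves are shown first, because the row of CTCF peaks described below runs through the interval that holds them. They come from RefSeq on the GRCh38.p14 build, and since the peaks are on hg18, no peak was placed on any of them. Of 53 protein-coding genes of the clusters, 47 had a promoter in that table. Short words that recur in these promoters were picked after reading them, and each contains the letters CGCT. The capitals mark the word in 2 promoters of each cluster, all on the plus strand.
PCDHA1, chr5:140786072-140786131: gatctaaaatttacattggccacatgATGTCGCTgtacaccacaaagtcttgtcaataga
PCDHA4, chr5:140806965-140807024: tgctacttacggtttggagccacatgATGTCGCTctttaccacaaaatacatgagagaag
PCDHB2, chr5:141094529-141094589: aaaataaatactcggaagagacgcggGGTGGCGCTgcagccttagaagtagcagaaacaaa
PCDHB4, chr5:141121708-141121768: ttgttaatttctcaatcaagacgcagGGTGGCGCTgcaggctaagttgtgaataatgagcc
PCDHGA1, chr5:141330389-141330449: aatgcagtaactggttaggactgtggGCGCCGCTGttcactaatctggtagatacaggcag
PCDHGB4, chr5:141387603-141387663: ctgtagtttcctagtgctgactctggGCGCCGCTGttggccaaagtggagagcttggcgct
On either strand, ATGTCGCT occurred in the promoters of 9 of 13 alpha genes, against 0.234% of the 35116 promoters of the table. GGTGGCGCT occurred in 13 of 14 beta genes, all but PCDHB1, against 0.501% of all promoters. GCGCCGCTG occurred in 10 of 20 gamma genes, against 1.28% of all promoters. None of these 3 words occurred in the listed promoters of the other clusters. Because the words were picked from these promoters, the shares describe them and are no test. A core of the CTCF consensus was also searched, on both strands, as 1 exact pattern. It was found in 1 of the 52 listed promoters of these genes (1.92%) and in 4.64% of all promoters. Near matches to this pattern were not counted, so the low share does not show that these promoters lack sites for CTCF. All these counts, of the words and of the core, are matches of letters in a window of 300 bases around the start of transcription. They are not mapped binding sites.

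Peaks were called by the authors. Each has a significance of −10 × log10 p, called its score here, which is at least 50, and a fold enrichment over the immunoglobulin background. Scores and folds depend on the depth of their own library, so values under the siRNAs stand side by side and are not read as a change in binding. After removal of repeated positions, the ChIP libraries held 1747770 to 15263937 tags under siRAD21 (median 7006171) and 3629966 to 19926326 under control siRNA (median 9603820). The siRAD21 library was the shallower for 9 of 11 targets. Fewer peaks from fewer bound sites and fewer peaks from a shallower library cannot be told apart. The antibody number labelled for H3K4me1, a mark of enhancers, is known for general histone H3, so what these libraries measured is in doubt. The number labelled for MYC likewise is known for a mouse antibody, against a rabbit one in the title.

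The window held 133 peaks under siRAD21 and 229 under control siRNA. CTCF had 31 peaks in siRAD21 cells and 56 in control cells, a ratio of 0.554, where its whole lists gave 0.731 and its tags 0.346. RAD21 had 17 peaks in siRAD21 cells and 40 in control cells, a ratio of 0.425, against 0.546 for the lists and 0.615 for the tags. SMC3 had 12 peaks in siRAD21 cells and 38 in control cells, a ratio of 0.316, close to the 0.323 of its lists, with a tag ratio of 0.531. NIPBL, the loader of cohesin, had 7 peaks in siRAD21 cells and 14 in control cells. REST had 6 under each siRNA. H3K4me1 had 35 peaks in siRAD21 cells and 37 in control cells.

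All 11 targets had more peaks per Mb in the window than over their whole list under both siRNAs, taken over the effective genome. Per Mb, CTCF had 25.8 peaks in siRAD21 cells and 46.7 in control cells, where its whole lists averaged 11.7 and 16.0 in the same order. RAD21 had 14.2 peaks per Mb in siRAD21 cells and 33.3 in control cells, against list averages of 7.18 and 13.2. The excess was not confined to CTCF and cohesin, since REST had 5.00 per Mb in siRAD21 cells and 5.00 in control cells, against list averages of 1.59 and 1.48, and NIPBL had 5.83 and 11.7, against 2.21 and 4.25. These densities cover the interval and its flanks together, and the excess did not hold for every target in the interval alone. There CTCF had 2.33 peaks per 100 kb in siRAD21 cells and 5.21 in control cells, above its list averages. H3K4me1 had 0.959 and 1.37 per 100 kb there, below its list averages of 19.5 and 22.2 per Mb. RFX2 had no interval peak under either siRNA. HNF4A and MYC were also below their list averages there under both siRNAs, as were SMC3, JUND and KLF5 in siRAD21 cells and NIPBL in control cells. SMC3 had 0.411 per 100 kb in siRAD21 cells, against a list average of 4.56 per Mb. RAD21 and REST were above theirs under both siRNAs, as were SMC3, JUND and KLF5 in control cells and NIPBL in siRAD21 cells.

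**Figure D1:**
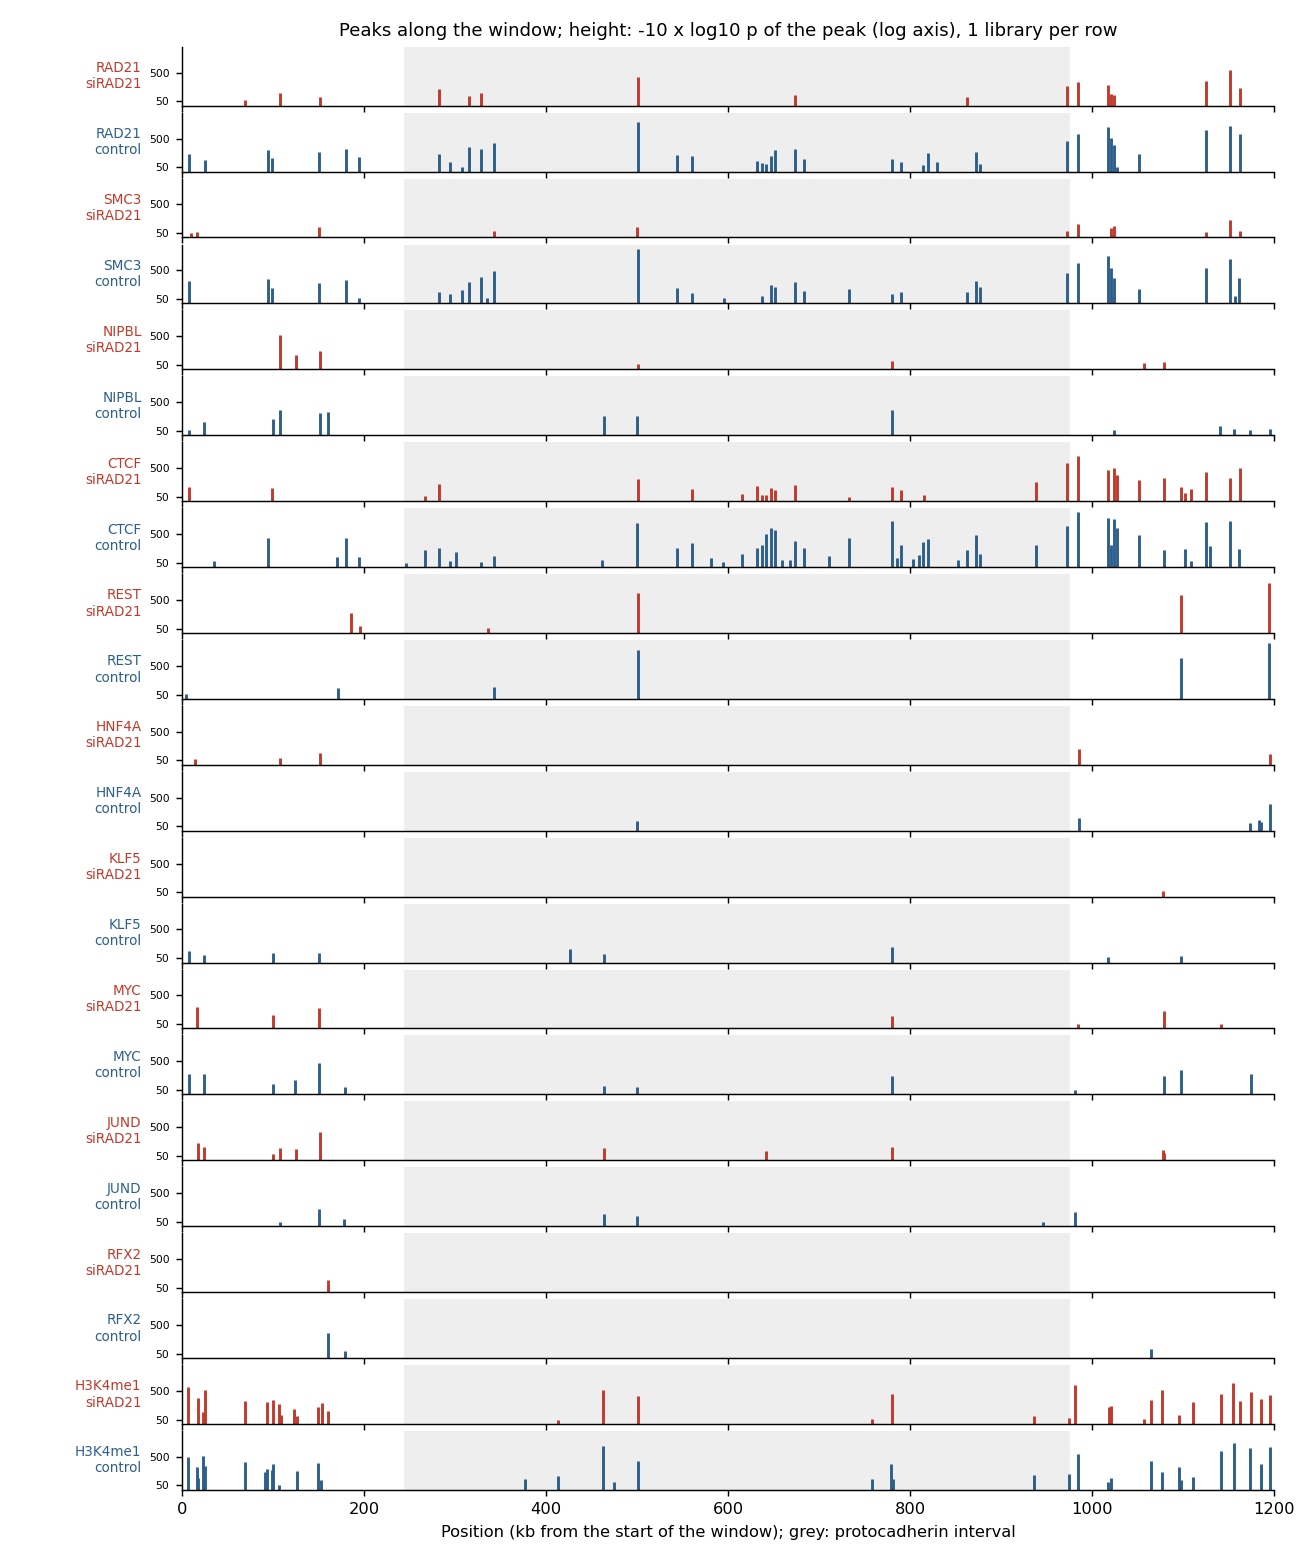
Peaks of the 11 targets along the window, in kb from its start, with the siRAD21 library above the control library of each target. Each line is 1 peak, its height is the score on a log axis, and grey marks the protocadherin interval, where CTCF, RAD21 and SMC3 made up most of the peaks.

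Inside the interval most sites held CTCF, RAD21 or SMC3, alone or together, and few held another factor. Overlapping peaks of the 10 targets other than H3K4me1 were joined under both siRNAs into 88 sites, of which 19 lay in the lower flank, 45 in the interval and 24 in the upper flank. Of the 45 interval sites, 37 held CTCF, RAD21 or SMC3 and no other factor, while this was so at 5 of 19 sites of the lower flank and 9 of 24 of the upper flank. Control peaks of CTCF, RAD21 and SMC3 met at 17 of the 45. The share of such sites over the whole series is not given here. An H3K4me1 peak overlapped 4 of the 45 interval sites under either siRNA, 12 of 19 in the lower flank and 17 of 24 in the upper flank. In siRAD21 cells, 3 of 17 interval CTCF peaks overlapped H3K4me1, which is 17.6% (95% exact interval 3.80 to 43.4%), beside 30.8% of the whole siRAD21 CTCF list. In the control cells, 3 of 38 interval CTCF peaks overlapped H3K4me1, which is 7.89% (95% exact interval 1.66 to 21.4%), beside 25.4% of the whole control CTCF list. The longest stretches of the window without any of the 362 peaks were chr5:140778056-140834953 (56.9 kb) and chr5:140096012-140145460 (49.4 kb), the second of which ends at the lower border of the interval.

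CTCF peaks were spread through the interval with gaps of up to 219 kb between neighbouring summits in siRAD21 cells and up to 119 kb in control cells. The median gap was 23.1 kb in siRAD21 cells and 13.4 kb in control cells. Control CTCF peaks of the interval mostly scored low for their list, with a median of 149 (50.62 to 1431.96, 38 peaks) beside 295 for the whole list. The 13 of the upper flank had a median of 454 (59.58 to 2925.71). In siRAD21 cells the medians were 92.2 for 17 interval peaks and 260 for 12 peaks of the upper flank, beside 141 for the whole list.

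A CTCF peak of the control cells was counted as retained where a CTCF peak of the siRAD21 cells overlapped it by at least 1 bp. Of the 56 control CTCF peaks in the window, 28 were retained (50.0%, 95% exact interval 36.3 to 63.7%), beside 63.1% of the whole list. The retained peaks had a median control score of 319 and the lost ones 81.8, so the rest of the list was also read at the same spread of scores, where it gave 53.1%, inside the exact interval. By position, 17 of 38 were retained in the interval (44.7%), 11 of 13 in the upper flank (84.6%) and 0 of 5 in the lower flank, where like scores elsewhere gave 47.9%, 72.0% and 42.8%. Read from the other side, 28 of the 31 CTCF peaks of siRAD21 cells lay on control CTCF peaks (list 87.1%), among them all 17 of the interval.

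The retained shares of cohesin in the interval were 25.0% for RAD21 and 13.0% for SMC3, beside the 44.7% of CTCF, a difference that was not tested. For RAD21, 14 of 40 control peaks of the window were retained (35.0%, 20.6 to 51.7%), beside 46.6% of the list and 38.6% at like scores. In the interval this was 6 of 24 (28.5% at like scores) and in the upper flank 7 of 9 (77.8%, with 71.4% at like scores). For SMC3, 10 of 38 were retained (26.3%, 13.4 to 43.1%), beside 28.4% of the list and 24.3% at like scores. In the interval this was 3 of 23 (16.1% at like scores) and in the upper flank 6 of 9 (66.7%, with 52.0% at like scores). Cut to equal numbers of the strongest peaks of both lists, RAD21 had 17 peaks in the window in siRAD21 cells and 17 in control cells, and SMC3 12 and 8 in the same order. With these peaks the retained shares in the window were 70.6% for RAD21, 87.5% for SMC3 and 72.2% for CTCF, so that SMC3 no longer had the lowest share. For CTCF, RAD21 and SMC3 the window and each of its stretches gave a 95% exact interval that held the value at like scores.

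**Figure D2:**
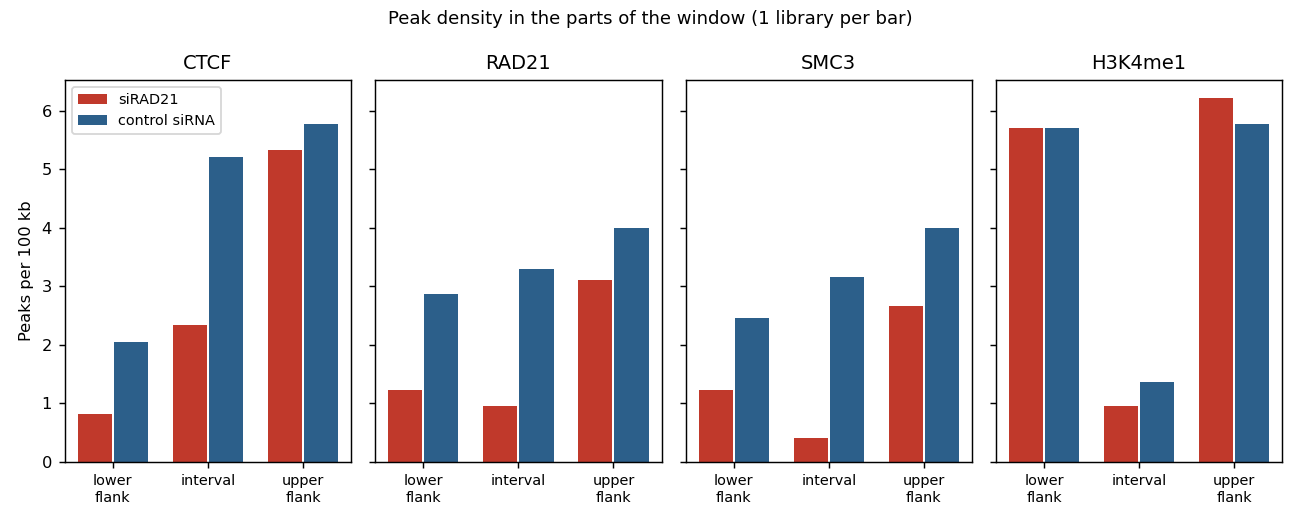
Peaks per 100 kb of CTCF, RAD21, SMC3 and H3K4me1 in the lower flank, the interval and the upper flank, with siRAD21 left of control siRNA and 1 library per bar. In the interval SMC3 had 0.411 peaks per 100 kb in siRAD21 cells and 3.15 in control cells, while H3K4me1 was sparse there under both siRNAs, with 0.959 and 1.37 in the same order.

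H3K4me1 peaks were mostly found again. Of 37 control peaks 33 were retained (89.2%, 74.6 to 97.0%), beside 74.3% of the list and 73.1% at like scores, which lie just below the exact interval. Where summits had to lie within 250 bp, the share was 48.6%. With scores of at least 100, 20 of 27 were retained (74.1%, 53.7 to 88.9%). Neighbouring control peaks could match the same siRAD21 region, as at chr5:139913142-139918710. The median length of these regions was 2805 bp in siRAD21 cells and 2298 bp in control cells. The other factors had few peaks. KLF5, a factor of the intestinal crypt, kept 0 of 9 control peaks (10.2% of its list). MYC, a growth regulator, kept 4 of 13 (28.9% of its list) and NIPBL kept 4 of 14 (17.4% of its list). JUND, an AP-1 factor, kept 3 of 7 (35.1% of its list). HNF4A, a nuclear receptor of gut and liver epithelium, kept 2 of 6 (33.4% of its list) and RFX2, an activator of cilium genes, 1 of 3 (13.2% of its list). With so few peaks their 95% intervals were wide, from 9.90 to 81.6% for JUND, for example.

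**Figure D3:**
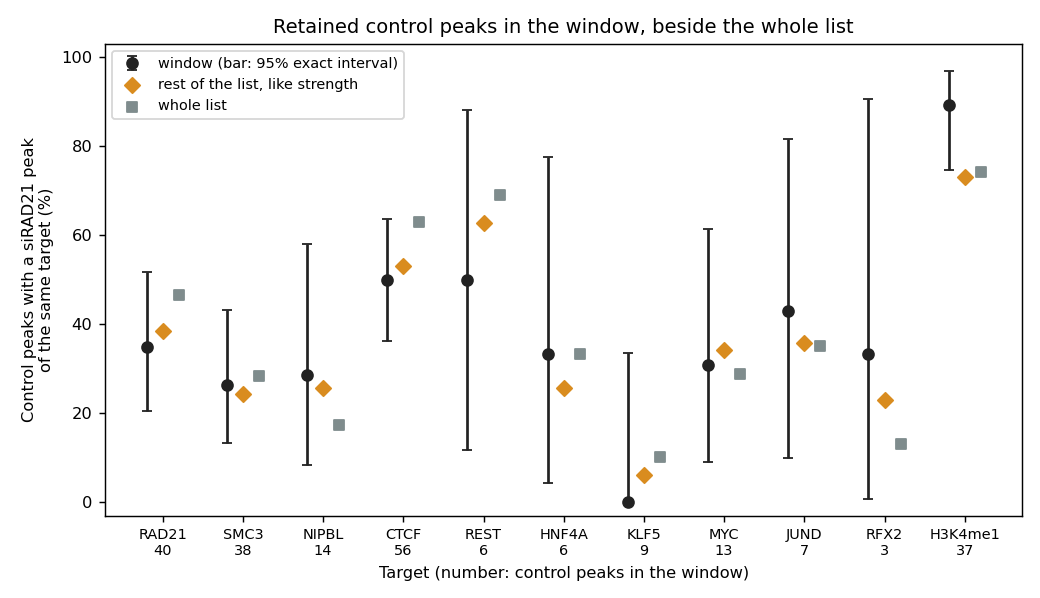
Share of control peaks of each target found again in siRAD21 cells, in the window (circle, with its 95% exact interval), in the rest of the list at like scores (diamond) and in the whole list (square). The value at like scores lies outside the window's interval for H3K4me1, at 73.1% against 89.2%. With scores of at least 100 the window's share for H3K4me1 was 74.1%.

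Called peaks of CTCF and cohesin coincided less often in siRAD21 cells, whose CTCF, RAD21 and SMC3 libraries were shallower, than in control cells. This difference was not tested. CTCF peaks with neither RAD21 nor SMC3 of the same cells numbered 21 of 31 in siRAD21 cells (67.7%, list 48.0%) and 20 of 56 in control cells (35.7%, list 26.8%). In the interval these were 13 of 17 in siRAD21 cells and 14 of 38 in control cells. RAD21 peaks lay on CTCF at 10 of 17 in siRAD21 cells (58.8%, 32.9 to 81.6%, list 80.5%) and at 33 of 40 in control cells (82.5%, 67.2 to 92.7%, list 82.4%). Both of these RAD21 intervals hold the list share.

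CTCF sites with cohesin were then followed one by one. Of 56 control CTCF peaks, 28 overlapped both a RAD21 and an SMC3 peak of the control cells (50.0%), beside 63.0% of the whole CTCF list, and 3 of these sites lay in the lower flank, 17 in the interval and 8 in the upper flank. In siRAD21 cells CTCF was found at 17 of the 28 (60.7%, with 78.1% of the 27720 such sites of the whole list). RAD21 was found at 12 (42.9%, list 57.8%) and SMC3 at 9 (32.1%, list 37.9%). At 7 sites all of CTCF, RAD21 and SMC3 were found (25.0%, list 33.0%). At 7 others CTCF was found with neither subunit (25.0%, list 23.4%), and 6 of these lay in the interval. None of the proteins was found at 8 sites (28.6%, list 15.6%), which were 3 of 3 in the lower flank, 5 of 17 in the interval and 0 of 8 in the upper flank. The list shares of these followed sites were not read at like scores.

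**Figure D4:**
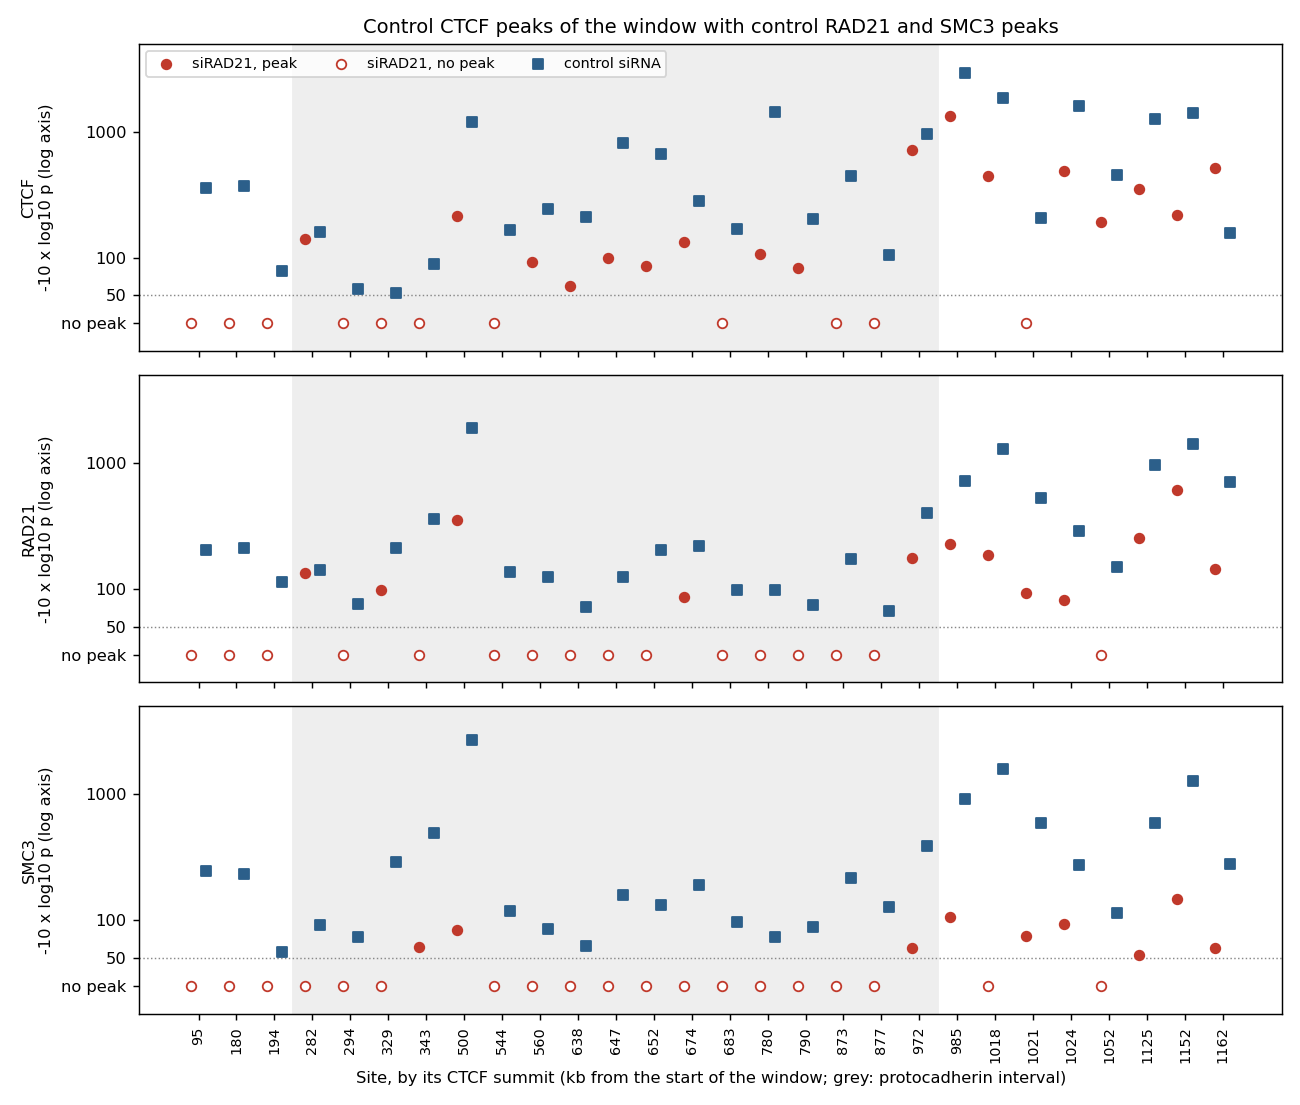
Scores of CTCF, RAD21 and SMC3 at the 28 CTCF-cohesin sites, ordered by position, with siRAD21 (circles, open where no peak was called) left of control siRNA (squares). The upper flank kept RAD21 peaks at 7 of 8 sites, while 5 of 17 sites of the interval did, beside 57.8% over the whole list. Strength differed too, since control RAD21 peaks had a median score of 704 in the upper flank and 125 in the interval.

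The site with the strongest cohesin of the window was chr5:140398797-140402038, inside the interval, with 8 of the 10 joined targets, the most at any site. RAD21 scored 350.65 there in siRAD21 cells and 1884.5 in control cells, and SMC3 scored 83.39 in siRAD21 cells and 2698.94 in control cells. These were the highest RAD21 and SMC3 scores of the window in control cells. CTCF scored 214.12 in siRAD21 cells and 1201.92 in control cells, and REST 862.68 and 1845.55 in the same order. NIPBL, with 52.93 in siRAD21 cells and 159.75 in control cells, and H3K4me1, with 334.26 and 343.14, were also present under both siRNAs, while HNF4A, MYC and JUND had peaks in the control cells alone, with scores of 64.91 to 81.2. It was the one site of the window where REST met CTCF, RAD21 and SMC3 under both siRNAs. HS5-1 is known for CTCF and REST, but without an annotation of hg18 this site was not placed on it.

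At the upper end of the interval, CTCF at chr5:140871154-140872942 scored 723.8 in siRAD21 cells and 960.59 in control cells, the highest CTCF score of the interval in siRAD21 cells. RAD21 scored 174.62 there in siRAD21 cells and 403.97 in control cells, and SMC3 59.61 and 389.95 in the same order. This site and the REST site above were the 2 of the 17 in the interval that had CTCF, RAD21 and SMC3 under both siRNAs.

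The middle of the interval held a tight row of CTCF peaks at which RAD21 ranked below CTCF within their own control lists. From chr5:140531706-140532916 to chr5:140551145-140552814, 5 CTCF summits lay at 632.4, 637.6, 642.1, 646.8 and 652.1 kb from the start of the window. Their CTCF scores were 121.88, 59.24, 57.11, 99.0 and 85.12 in siRAD21 cells and 161.73, 211.45, 487.16, 808.8 and 669.08 in control cells, in order of position. CTCF was thus found at all 5 under both siRNAs, with every siRAD21 score below every control score of the row. RAD21 had no peak at any of the 5 in siRAD21 cells and scored 65.9 to 203.23 in control cells. SMC3 likewise had none in siRAD21 cells, and in control cells it had peaks at 3 of them, with scores of 62.03 to 157.68. The one other factor in the row was JUND, with a peak of 73.62 at the third site in siRAD21 cells alone.

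The strongest interval CTCF peak of the control cells also ranked higher in its list than RAD21 and SMC3 did in theirs. At chr5:140678889-140680893 CTCF scored 107.19 in siRAD21 cells and 1431.96 in control cells. RAD21 had no peak in siRAD21 cells and 96.97 in control cells, and SMC3 had none in siRAD21 cells and 73.86 in control cells. NIPBL at this site scored 67.2 in siRAD21 cells and 274.52 in control cells, MYC 96.62 and 150.07, and H3K4me1 379.76 and 275.33, each in that order. JUND had a peak of 100.48 in siRAD21 cells alone and KLF5 one of 127.18 in control cells alone. With 7 joined targets and H3K4me1, it was among the most crowded sites of the window.

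Some sites in the lower part of the interval had higher cohesin scores than CTCF scores in control cells, and 3 of them, picked after their values were seen, are given here. At chr5:140228007-140229991 CTCF had no peak in siRAD21 cells and 52.24 in control cells. RAD21 there scored 98.6 in siRAD21 cells and 209.48 in control cells, and SMC3 had no peak in siRAD21 cells and 291.73 in control cells. At chr5:140241843-140243245 CTCF had no peak in siRAD21 cells and 89.01 in control cells. RAD21 had no peak there in siRAD21 cells and 361.01 in control cells, its highest score among lost peaks of the window, and SMC3 scored 60.5 in siRAD21 cells and 493.55 in control cells. At chr5:140214993-140216343 no CTCF peak was called under either siRNA. RAD21 scored 76.96 there in siRAD21 cells and 253.14 in control cells, and SMC3 had no peak in siRAD21 cells and 195.82 in control cells. Other sites of the same stretch differed, since CTCF at chr5:140166465-140168046 scored 52.62 in siRAD21 cells and 136.09 in control cells with no RAD21 or SMC3 peak under either siRNA, and chr5:140200333-140201582 had CTCF in control cells alone, with 118.45, and no cohesin. Ranked within their own control lists, RAD21 stood above CTCF at 7 and below it at 14 of the 21 interval CTCF peaks with RAD21, with a median percentile of 36.1 for RAD21 and 45.4 for CTCF.

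Of the other interval sites named here, chr5:140772044-140773454 was the strongest CTCF peak lost in the window. CTCF, RAD21 and SMC3 had no peak there in siRAD21 cells and scored 446.53, 173.99 and 216.96 in control cells. At chr5:140572675-140574383 CTCF scored 133.85 in siRAD21 cells and 282.32 in control cells and RAD21 86.4 and 218.17, while SMC3 had no peak in siRAD21 cells and 189.09 in control cells.

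The upper flank held the 3 highest CTCF scores of the window in control cells. At chr5:140883497-140886241, just above the interval, CTCF scored 1347.92 with a fold enrichment of 127.62 in siRAD21 cells, and 2925.71 with a fold of 64.09 in control cells. Score and fold thus ran in opposite directions between the libraries. RAD21 scored 229.04 in siRAD21 cells and 723.58 in control cells, SMC3 105.32 and 916.91, and HNF4A 125.96 and 95.0, each in that order. At chr5:140916931-140918884 CTCF scored 445.97 in siRAD21 cells and 1852.28 in control cells and RAD21 187.08 and 1284.43. SMC3 there had no peak in siRAD21 cells and 1579.93 in control cells, the strongest SMC3 peak lost in the window. At chr5:140922367-140925267 CTCF scored 489.85 in siRAD21 cells and 1605.35 in control cells, RAD21 81.52 and 288.31, and SMC3 92.09 and 273.58.

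Further up, chr5:141050902-141053249 carried the highest RAD21 and SMC3 scores of the siRAD21 cells in the window. RAD21 scored 611.03 in siRAD21 cells and 1422.95 in control cells, SMC3 147.04 and 1280.41, and CTCF 217.83 and 1420.3. At chr5:141023955-141025514 CTCF scored 351.73 in siRAD21 cells and 1260.32 in control cells, RAD21 253.52 and 958.86, and SMC3 53.07 and 585.9. At chr5:140951135-140952789 CTCF scored 192.77 in siRAD21 cells and 453.56 in control cells, while RAD21 and SMC3 had no peak in siRAD21 cells and scored 147.81 and 114.25 in control cells. At chr5:141060953-141062604 CTCF ran the other way, with 512.26 in siRAD21 cells and 156.24 in control cells, while RAD21 scored 143.64 and 704.09 and SMC3 59.76 and 280.09 in that order. CTCF likewise scored higher in siRAD21 cells at chr5:140978941-140979850, with 231.34 against 138.75 in control cells. The same held at chr5:141008465-141009632, with 91.11 against 59.58. These sites with a higher CTCF score in siRAD21 cells were named after their values were seen.

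In the lower flank none of the 3 CTCF-cohesin sites of control cells had a CTCF, RAD21 or SMC3 peak in siRAD21 cells. At chr5:140079276-140080887 CTCF, RAD21 and SMC3 had no peak in siRAD21 cells and scored 371.96, 212.15 and 232.44 in control cells. MYC, JUND and RFX2 overlapped the same joined site in control cells, with scores of 60.86 to 64.45, and no target had a peak there in siRAD21 cells. At chr5:139994191-139995704 CTCF, RAD21 and SMC3 had no peak in siRAD21 cells and scored 355.93, 203.07 and 243.21 in control cells. The 2 CTCF peaks of the lower flank in siRAD21 cells, chr5:139906980-139908147 with 110.68 and chr5:139998391-139999645 with 104.79, both lay where control CTCF had no peak and where RAD21 and SMC3 had peaks in control cells alone.

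A pair of sites in the lower flank held 7 joined targets each, and the first was chr5:140050038-140052292. JUND scored 343.88 there in siRAD21 cells and 139.28 in control cells, its highest score in the window under both siRNAs. MYC scored 180.93 in siRAD21 cells and 453.74 in control cells, NIPBL 153.32 and 203.42, RAD21 69.78 and 164.59, and SMC3 80.93 and 179.35. HNF4A had a peak of 93.07 in siRAD21 cells alone and KLF5 one of 77.45 in control cells alone. CTCF had no peak at this site under either siRNA. The other site, chr5:139998391-140000428, held CTCF, MYC and JUND in siRAD21 cells and RAD21, SMC3, NIPBL, KLF5 and MYC in control cells. MYC scored 104.81 there in siRAD21 cells and 78.62 in control cells.

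NIPBL had its highest score under both siRNAs at a place without CTCF, chr5:140006459-140008441 in the lower flank. It scored 567.16 there with a fold of 35.86 in siRAD21 cells and 275.81 with a fold of 8.51 in control cells. A RAD21 peak of 95.22 lay there in siRAD21 cells alone, the strongest RAD21 peak of these cells with no control peak nearby, beside JUND, which scored 94.94 in siRAD21 cells and 50.77 in control cells. The strongest lost NIPBL peak, chr5:140059766-140061049, scored 232.3 in control cells and lay beside the strongest RFX2 peak, which scored 93.19 in siRAD21 cells and 268.65 in control cells. The next lost NIPBL peak was chr5:140363618-140364740, with 167.47 in control cells. These lost NIPBL peaks had FDRs of 13.22 and 16.26%, and the strongest control NIPBL peak had 12.53%. No peak of the whole control NIPBL list had an FDR under 5%. The strongest NIPBL peak of siRAD21 cells without a control partner was chr5:140023955-140025302, with 108.78.

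MYC and JUND each had their strongest peak without a control partner near chr5:139916069-139918022. MYC scored 196.1 there and JUND 138.22 in siRAD21 cells, and SMC3 had a weak peak of 56.98, with none of them called in control cells. JUND was the target with more peaks in siRAD21 cells, 11 against 7 in control cells, and 8 of the 11 lay off its control peaks. The order turned with equal numbers of the strongest peaks of both lists, where JUND had 3 in siRAD21 cells and 7 in control cells. With an FDR under 5%, JUND had 1 and 0 in the same order. Its whole siRAD21 list was similar, with 13.3% of peaks on control peaks against 27.3% in the window, and its siRAD21 library held 2.02 times the tags of the control one. The strongest lost MYC peak was chr5:140995195-140998940, with 242.41 in control cells, followed by chr5:139906231-139908322 with 186.62. The strongest lost JUND peak was chr5:140880418-140881725, with 113.67 in control cells and an FDR of 9.57%. No peak of the whole control JUND list had an FDR under 5%. KLF5 had its strongest lost peak at chr5:140679530-140681418, described above, and a second of 103.16 at chr5:140325700-140326480. Its one peak in siRAD21 cells, chr5:140977396-140978667, scored 57.45.

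REST, the repressor of neuronal genes, had 3 places under both siRNAs, and these carried its highest scores. Besides the interval site described above, REST scored 732.03 in siRAD21 cells and 972.97 in control cells at chr5:140996707-140998967, and 1953.23 in siRAD21 cells and 3100 in control cells at chr5:141091357-141097611. The value 3100 was shared by 527 REST peaks of the control list and so ranks none of them above another. At chr5:140996707-140998967 a CTCF peak of 112.27 was called in siRAD21 cells alone, the strongest CTCF peak of these cells without a control partner in the window, while MYC and KLF5 had peaks in control cells alone. At chr5:141091357-141097611 HNF4A scored 84.07 in siRAD21 cells and 308.01 in control cells, and H3K4me1 350.3 and 1119.8. The strongest lost HNF4A peak, chr5:141083178-141084559, scored 84.09 in control cells and lay below this site.

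The other REST peaks were called under 1 siRNA each and scored at most 170.95. REST peaks in siRAD21 cells alone scored 170.95 at chr5:140085680-140086484, 59.57 at chr5:140095167-140096011 and 51.57 at chr5:140235972-140236793. REST peaks in control cells alone scored 88.23 at chr5:140242476-140243365, 81.87 at chr5:140069905-140072304 and 52.8 at chr5:139904255-139904981. The first of these control peaks lay on CTCF, RAD21 and SMC3 of control cells. These 3 control peaks had FDRs of 45.47, 51.66 and 97.34%. In all, 3 of 6 control REST peaks of the window were retained (list 69.1%), and 3 of 6 REST peaks of siRAD21 cells lay on control REST peaks (list 65.4%). Among control peaks with an FDR under 5%, and likewise with scores of at least 100, 3 of 3 were retained. CTCF of the same cells overlapped 2 of 6 REST peaks in siRAD21 cells (list 10.9%) and 3 of 6 in control cells (list 10.4%). The 95% interval was 4.33 to 77.7% in siRAD21 cells, which holds the list share. In control cells it was 11.8 to 88.2%, which lies just above the list share. The control REST peaks on CTCF include chr5:140242476-140243365 and chr5:140069905-140072304, with the FDRs of 45.47 and 51.66% given above.

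H3K4me1 regions were broad and mostly shared. The strongest of the window, in the upper flank, was chr5:141053596-141057577, which scored 940.97 in siRAD21 cells and 1493.74 in control cells. In the interval the strongest was chr5:140360401-140365883, with 542.26 in siRAD21 cells and 1159.76 in control cells, and JUND scored 94.38 and 92.96 inside it. The strongest H3K4me1 peak lost was chr5:139990136-139991928, with 146.89 in control cells, followed by chr5:140275714-140277390 with 82.75. The strongest one of siRAD21 cells without a control partner was chr5:141059026-141063212, with 218.14, which covers the CTCF peak at chr5:141060953-141062604.

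The window's borders were set by position. The nearest peak outside below was a MYC peak of siRAD21 cells at chr5:139868169-139869032 with a score of 60.37, and the first inside was the REST peak of 52.8 named above. Above, the last peak inside was the control REST peak with 3100, and the nearest outside, at chr5:141100152-141108354, was another control REST peak with the same score.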

How the data were processed

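ChIP-seq was done in GP5d cells with siRAD21 or control siRNA, with 1 library per target and siRNA, grouped by their titles. The tools were CASAVA 1.4, BWA and MACS 1.4, on hg18, per the submitters' processing notes. MACS 1.4.0rc2 was run by the authors on each library alone, with an immunoglobulin library of matching siRNA and host as background, at a p cutoff of 1e-05 with 1 kept tag per position, per the file headers. How reads of 32 to 33 bp that match several of these similar genes were placed is not given in the sources used here. Per the file headers, the deposited lists give a tag count, a score (−10 × log10 p), a fold enrichment (a linear ratio) and, in percent, a false discovery rate (FDR) for each peak. The FDR stands in an unnamed column, read so because its number of values under 5 matched the labels in all 22 lists. A siRNA tag of the labels conflicts with the titles in most siRAD21 libraries and was not used.

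Overlaps of at least 1 bp, exact Clopper-Pearson 95% intervals and 10 strata of score (for like scores) were computed with Python 3.11.15, pandas 2.3.3 and scipy 1.17.1, and the overlap code was tested on simulated data. Intervals cover counting error only. A peak was placed by its summit. The window, the lists and the rules were chosen with earlier results of these data known. Regions named were the 15 CTCF-cohesin sites with the highest control CTCF score, every REST peak, the strongest peak per library, the strongest lost and unmatched peaks per target, and the sites with the most targets, with further ones added after their values were seen. Those added were interval sites in the tight row and in the lower part, and the paired CTCF peaks of the lower flank in siRAD21 cells. The upper flank sites with a higher CTCF score in siRAD21 cells were also added. Other settings tried were an FDR under 5%, a score of at least 100, equal numbers of the strongest peaks, other rules of matching, placing and joining, and other strata. Promoters came from RefSeq (GRCh38.p14). No genome of hg18 was used here.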

Additional observations from a re-analysis of the deposited data

How the results depend on the processing

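No paired analysis was possible because each target had 1 library per siRNA and no result came from a test. Of 253 values under other settings, 169 stayed close to the reported value and 84 moved, nearly all where weak peaks were left out. For counts, close meant within 1.5 times, and for shares it meant within the exact interval of the reported share. The values at like scores, 11 per strata setting, had a limit set from the width of the retained share's exact interval. That limit was wide for targets with few peaks, and none of these values moved. With peaks under 5% FDR, SMC3 had 1 peak in the window in siRAD21 cells (0 in the interval), and in control cells CTCF had 37 (23 in the interval) and REST 3. With these peaks the retained share was 2.94% for SMC3, 70.3% for CTCF and 100% for REST, and SMC3 was found at 4.55% of the CTCF-cohesin sites in siRAD21 cells. Another target was met by 3 of 3 control REST peaks, where 5 of 6 met one with all peaks (83.3%). The share of the whole REST list that met any other target is not given here. The FDR depends on the immunoglobulin library of each siRNA. With scores of at least 100, the window held 69 peaks in siRAD21 cells and 142 in control cells. CTCF then had 19 in siRAD21 cells and 37 in control cells, RAD21 8 and SMC3 2 in siRAD21 cells, and REST 3 in control cells. In the interval CTCF had 7 in siRAD21 cells and 23 in control cells, RAD21 3 and 13, and SMC3 0 and 13. The retained share was then 7.69% for SMC3, 74.1% for H3K4me1 and 100% for REST. SMC3 was found at 11.8% of CTCF-cohesin sites, and 3 of 3 control REST peaks met another target. With equal numbers of the strongest peaks of both lists, the window held 131 control peaks in all, with 36 of CTCF, 17 of RAD21 and 8 of SMC3, and the retained shares were 72.2%, 70.6% and 87.5% for CTCF, RAD21 and SMC3. At equal list lengths RAD21 thus had 17 peaks in the window under each siRNA, while SMC3 had 12 in siRAD21 cells and 8 in control cells. NIPBL and JUND gave no retained share under 5% FDR, since no control peak passed. Placing, joining, matching and strata settings moved 1 further value, the retained share of H3K4me1, which was 48.6% with summits within 250 bp. One library per group and depth that differs between the siRNAs limit every comparison, and the similarity of the genes may limit which tags could be placed.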
